A study of Mus musculus with 12 samples.

Results

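The set described here holds 39 genes that mark endothelial cells, the lining of blood and lymph vessels. The genes were given as a named list with pan-endothelial, arterial, venous and activated, and lymphatic members. The split by role, with a capillary and angiogenic subset apart from the pan-endothelial genes, was made here. The list has 21 pan-endothelial genes, 8 capillary and angiogenic genes, 2 arterial genes, 5 venous and activated genes and 3 lymphatic genes. All 39 were found among the 78334 Ensembl identifiers of the count table, and all 39 passed the filter on low counts that left 16981 genes for testing. The RNA came from the left ventricle of 12 mice, 1 library per mouse, in 3 groups of 4. UNX/DOCA ITF2357 mice had the UNX/DOCA operation (removal of a kidney together with the mineralocorticoid deoxycorticosterone acetate, a model of diastolic dysfunction) and, starting 4 weeks later, a further 4 weeks on chow that held ITF2357 (givinostat, an inhibitor of histone deacetylases). UNX/DOCA vehicle mice had the same operation and ate normal chow over the same weeks. Sham vehicle mice had a sham operation and normal chow. The labels give no strain, sex or age, and no group of sham mice on ITF2357 chow was analysed here, so the comparison of UNX/DOCA ITF2357 with Sham vehicle holds the operation and the drug together. The 3 comparisons share libraries, and their values stand side by side below without a test of one against another.

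Endothelial cells differ along the vessel tree. Arterial cells are held in their state by Notch signalling, capillary cells of the heart take up fatty acids for the muscle, and venules are where leukocytes leave the blood, with the help of selectins and adhesion molecules that inflammatory cytokines switch on through NF-kB. Lymphatic endothelium is set by the transcription factor Prox1 and grows through the receptor Flt4 (VEGFR3). Vascular endothelial growth factor acts through Kdr (VEGFR2) and Flt1 (VEGFR1), and angiopoietins act through Tek (Tie2), which the phosphatase Ptprb (VE-PTP) holds down. In bulk tissue, fewer cells of a type and less RNA per cell cannot be told apart.

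The 21 pan-endothelial genes had median log2 fold changes of 0.04, -0.04 and 0.05 for UNX/DOCA vehicle over Sham vehicle, UNX/DOCA ITF2357 over UNX/DOCA vehicle and UNX/DOCA ITF2357 over Sham vehicle. With the 8 capillary and angiogenic genes added, the medians of the 29 genes were 0.19, -0.05 and 0.05 in the same order. The first of these was -0.02 without UNX/DOCA vehicle replicate 3. Of the 39 genes, 2 passed the test in 1 comparison each. Ptprb rose 1.41-fold in UNX/DOCA ITF2357 hearts relative to UNX/DOCA vehicle hearts, a call at the threshold that held in 5 of 21 alternative fits. Apln, which encodes the peptide apelin made by sprouting capillary cells, fell 2.50-fold in UNX/DOCA ITF2357 hearts relative to Sham vehicle hearts, a call that held in 16 of 21. The largest fold changes belonged to the venous and activated genes Selp, Sele and Ackr1, but the high values of Selp and Ackr1 stood in 2 of the 4 UNX/DOCA vehicle libraries, and 0 of the 5 venous and activated genes passed in any comparison.

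Libraries held 23.4 to 34.9 M counts (mean 28.3 M). Levels are CPM, counts scaled to the library total and by TMM factors, and 1 CPM was about 28.3 reads. Counts were fitted with edgeR's quasi-likelihood test over all 16981 genes, and a gene was called at an adjusted p under 0.05. Fold changes are on the log2 scale and positive where the first-named group is higher. UNX/DOCA vehicle replicates 3 and 4 stood apart from the other 2 libraries of their group: their summed CPM over 8 neutrophil marker genes was 518 and 162, against 24.9 and 3.91 in replicates 1 and 2, and over 10 macrophage marker genes 635 and 460.2, against 242 and 309.8. UNX/DOCA vehicle replicate 3 was the highest of the 12 libraries for 15 of the 39 endothelial genes, or 38.5% of them, and for 19.1% of all genes tested. UNX/DOCA ITF2357 replicate 2 was the highest for 11 of the 39, or 28.2%, and for 7.67% of all genes. Several fold changes below are also given without UNX/DOCA vehicle replicates 3 and 4, a choice made after seeing the data.

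In UNX/DOCA vehicle against Sham vehicle hearts 0 of the 39 genes passed edgeR's test, as did 0 of all 16981 genes (0%). At an unadjusted p under 0.05, 6 of the 39 were higher and 1 lower, beside 9.42% and 6.47% of all genes (15.9% in either direction). Groups did not overlap for 2 of the 39, Cd34 and Fabp4, both higher, beside 5.03% of all genes higher and 4.36% lower (9.39% in all). DESeq2 called 1 member, Cd34, beside 3.49% of all genes, and limma-voom called Cd34 and Pecam1, beside 3.07%.

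In UNX/DOCA ITF2357 against UNX/DOCA vehicle hearts 1 of the 39 was called, Ptprb, which was higher, beside 0.901% of all genes (0.459% higher and 0.442% lower). At an unadjusted p under 0.05, 2 members were higher and 5 lower, beside 8.7% and 9.8% of all genes (18.5% in all). Groups did not overlap for 3 members, Ptprb (higher), Cd34 and Apln (lower), beside 4.95% and 4.36% of all genes (9.31% in all). DESeq2 called 3 members, Ptprb, Cd34 and Sele, beside 5.46% of all genes, and limma-voom 0, beside 1.48%.

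In UNX/DOCA ITF2357 against Sham vehicle hearts 1 of the 39 was called, Apln, which was lower, beside 1.75% of all genes (0.913% higher and 0.842% lower). At an unadjusted p under 0.05, 3 members were higher and 3 lower, beside 10.7% and 9.39% of all genes (20.1% in all). Groups did not overlap for 2 members, Fabp4 (higher) and Apln (lower), beside 7.27% and 6.39% of all genes (13.7% in all). DESeq2 called 3 members, Apln, Kdr and Fabp4, beside 6.95% of all genes, and limma-voom 2, Apln and Kdr, beside 8.87%. With 0 or 1 of 39 called per comparison, the members' count is near the background. The median log2 fold change of the 39 genes was 0.21 for UNX/DOCA vehicle over Sham vehicle, -0.12 for UNX/DOCA ITF2357 over UNX/DOCA vehicle and 0.05 for UNX/DOCA ITF2357 over Sham vehicle, beside medians over all genes that round to 0 or 0.01. Without UNX/DOCA vehicle replicates 3 and 4 the first of these medians was -0.05 and the second 0.07.

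**Figure D1:**
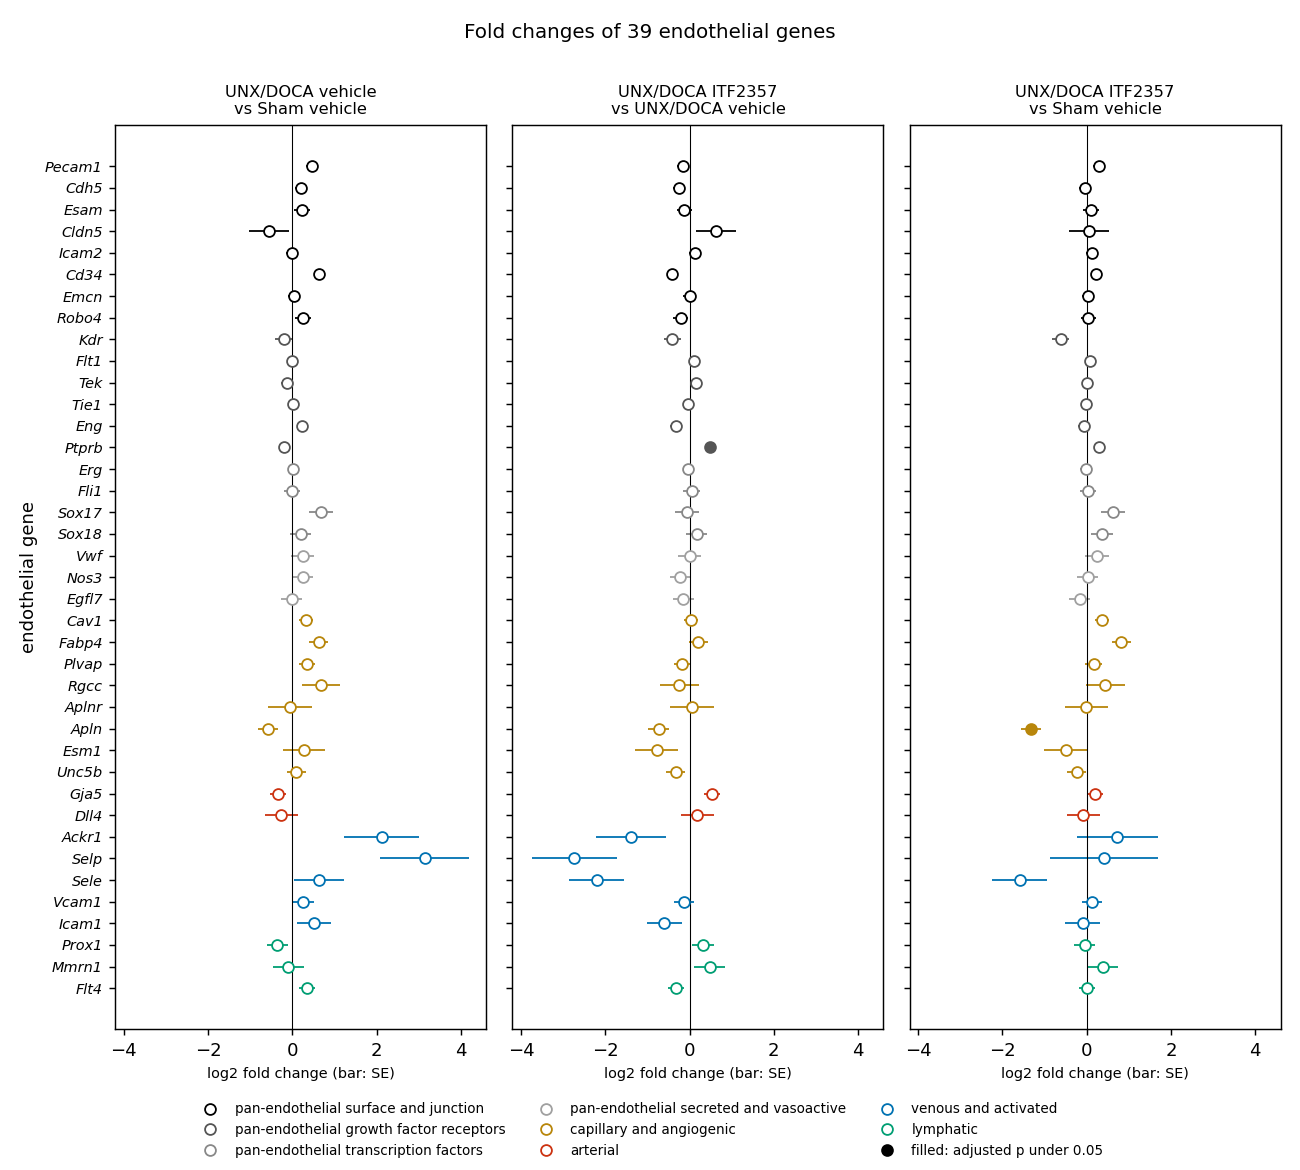
Log2 fold change (x axis, bars are standard errors) of each of the 39 endothelial genes (y axis, coloured by subset) in the 3 comparisons. Filled points passed an adjusted p under 0.05, and the 2 filled points are Ptprb in UNX/DOCA ITF2357 against UNX/DOCA vehicle and Apln in UNX/DOCA ITF2357 against Sham vehicle. The venous and activated genes Selp and Ackr1 lie farthest from 0 in the first panel and Selp and Sele in the second, all with long bars.

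Levels of different genes can be compared per length of exon. On the scale of CPM per kilobase of exon in Sham vehicle hearts, Cav1, the coat protein of caveolae, stood first at 65.4 ± 3.31 (SD, n = 4). Eng followed at 44.7 ± 7.37, Cdh5 at 35.98 ± 1.97 and Rgcc at 35.2 ± 24.7, and the SD ranges of these last 3 overlapped. Pecam1 at 25.9 ± 1.26 and Esam at 25.5 ± 4.58 came next. The venous and activated genes Selp, Ackr1 and Sele stood at the other end, while Icam1 at 2.77 ± 0.803 and Vcam1 at 1.40 ± 0.267 lay higher. Selp was lowest at 0.0357 ± 0.0499, below Ackr1 at 0.151 ± 0.0153, and Sele was at 0.753 ± 0.538. Esm1, an angiogenic gene of sprouting tip cells, lay among them at 0.420 ± 0.288. Selp was listed with 0 to 87 reads and Ackr1 with 2 to 63 reads per library, so the values of this pair rest on few reads.

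Summed over the 39 genes, the endothelial level ran from 2047 to 3040 CPM in UNX/DOCA ITF2357 libraries (median 2347), from 2370 to 2822 CPM in UNX/DOCA vehicle libraries (median 2475) and from 2194 to 2353 CPM in Sham vehicle libraries (median 2254). The 4 Sham vehicle libraries lay within the range of the UNX/DOCA ITF2357 libraries, and the lowest UNX/DOCA vehicle library lay just above the highest Sham vehicle library. By role, the 8 surface and junction genes had median log2 fold changes of 0.22 for UNX/DOCA vehicle over Sham vehicle and -0.14 for UNX/DOCA ITF2357 over UNX/DOCA vehicle, the 6 receptor genes -0.08 and 0.04, the 4 transcription factors 0.11 and 0.00, the 3 secreted and vasoactive genes 0.24 and -0.15, and the 8 capillary and angiogenic genes 0.31 and -0.21. With both UNX/DOCA vehicle replicates 3 and 4 left out, the same medians were 0.07 and 0.00 for surface and junction genes, -0.03 and 0.01 for receptor genes and 0.02 and 0.24 for transcription factors. They were -0.21 and 0.23 for secreted and vasoactive genes and 0.20 and 0.05 for capillary and angiogenic genes, so the secreted median changed sign in both comparisons and the surface and capillary medians in 1 each.

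**Figure D2:**
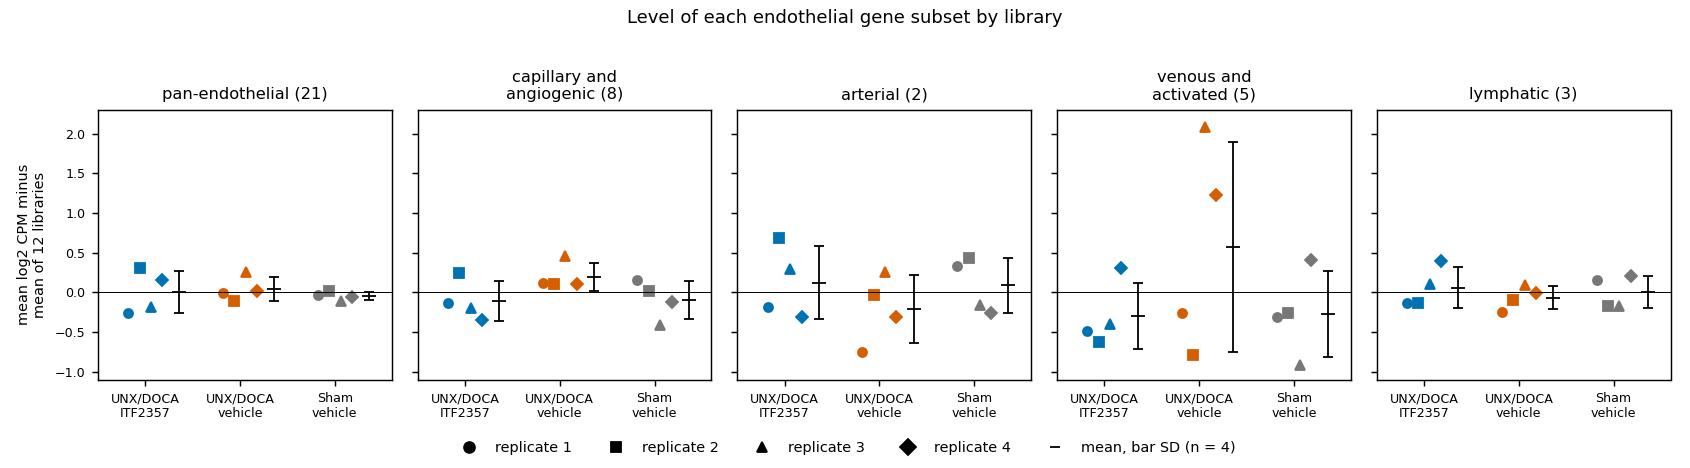
Mean log2 CPM of each endothelial subset (y axis, minus the mean of the 12 libraries) in the 4 libraries of each group, with a marker shape for each replicate and the mean and SD beside them. The pan-endothelial points run from -0.26 to 0.31 in UNX/DOCA ITF2357, from -0.11 to 0.25 in UNX/DOCA vehicle and from -0.11 to 0.02 in Sham vehicle. For the venous and activated genes UNX/DOCA vehicle replicates 3 and 4 stand above the other libraries.

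Among the 8 pan-endothelial surface and junction genes, 0 passed in any comparison, and 6 of 8 had a fold change above 0 for UNX/DOCA vehicle over Sham vehicle. Pecam1 (CD31) and Cdh5 (VE-cadherin) join neighbouring endothelial cells. Pecam1 had 159, 252, 176 and 209 CPM in the UNX/DOCA ITF2357 libraries, 171, 225, 254 and 234 CPM in the UNX/DOCA vehicle libraries and 156, 162, 172 and 155 CPM in the Sham vehicle libraries. The Sham vehicle libraries lay close together, 3 of the 4 UNX/DOCA vehicle libraries lay above all of them, and the UNX/DOCA ITF2357 libraries overlapped both groups. Pecam1 averaged 221 ± 35.3 CPM in UNX/DOCA vehicle hearts and 161 ± 7.86 CPM in Sham vehicle hearts (SD, n = 4 each), with a log2 fold change of 0.45 ± 0.14 (SE, adjusted p = 0.166). That value passed in 2 of 21 alternatives, limma-voom (adjusted p = 0.0436) and the fit without UNX/DOCA vehicle replicate 1 (adjusted p = 0.0479). For UNX/DOCA ITF2357 over UNX/DOCA vehicle the log2 fold change of Pecam1 was -0.15 ± 0.14 (adjusted p = 0.597). Cdh5 had 129.8, 194, 114 and 150.1 CPM in the UNX/DOCA ITF2357 libraries, 157, 158, 195 and 188 CPM in the UNX/DOCA vehicle libraries and 151, 157, 139.7 and 158 CPM in the Sham vehicle libraries. All 3 groups overlapped, with a log2 fold change of 0.21 ± 0.14 for UNX/DOCA vehicle over Sham vehicle (adjusted p = 0.492) and -0.25 ± 0.14 for UNX/DOCA ITF2357 over UNX/DOCA vehicle (adjusted p = 0.353).

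Cd34, a sialomucin on capillary endothelium that cardiac fibroblasts also make, came nearest to the threshold in UNX/DOCA vehicle against Sham vehicle. Cd34 had 109, 133, 127 and 121 CPM in the UNX/DOCA ITF2357 libraries, 141, 137, 203 and 168 CPM in the UNX/DOCA vehicle libraries and 93.03, 105, 111 and 111 CPM in the Sham vehicle libraries. Every UNX/DOCA vehicle library lay above every Sham vehicle library and above every UNX/DOCA ITF2357 library. Cd34 averaged 162 ± 30.4 CPM in UNX/DOCA vehicle hearts and 105 ± 8.42 CPM in Sham vehicle hearts, a log2 fold change of 0.63 ± 0.12 (adjusted p = 0.0841). With a mean of 122 ± 10.2 CPM in UNX/DOCA ITF2357 hearts, its log2 fold change over UNX/DOCA vehicle was -0.41 ± 0.12 (adjusted p = 0.106) and over Sham vehicle 0.22 ± 0.12 (adjusted p = 0.313). Of these 3 values 0 passed in the main edgeR fit. The first, UNX/DOCA vehicle over Sham vehicle, passed in 5 of 21 alternatives. These were DESeq2 (adjusted p = 0.000504), limma-voom (0.0200), no filter (0.000264), the replicate block (0.0405) and without UNX/DOCA vehicle replicate 1 (0.0238). The second, UNX/DOCA ITF2357 over UNX/DOCA vehicle, passed in 2 of 21, DESeq2 (0.0330) and no filter (0.0235). Without UNX/DOCA vehicle replicates 3 and 4 the first fold change was 0.41 (adjusted p = 0.452) and the second -0.19. The summed level of 8 fibroblast marker genes, all tested, ran from 1453 to 1769 CPM in UNX/DOCA ITF2357, from 1594 to 2265 CPM in UNX/DOCA vehicle and from 1610 to 1814 CPM in Sham vehicle libraries, and its part in the Cd34 values was not tested.

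The other 5 surface and junction genes, Esam, Cldn5, Icam2, Emcn and Robo4, did not pass in any comparison. Emcn (endomucin), a mucin of capillaries and veins, had log2 fold changes of 0.04 for UNX/DOCA vehicle over Sham vehicle and 0.00 for UNX/DOCA ITF2357 over UNX/DOCA vehicle. Icam2, a constitutive adhesion molecule, had -0.01 and 0.13 in the same comparisons. The junction gene Esam had 0.22 and -0.12, and the guidance receptor gene Robo4 had 0.26 and -0.21. The tight junction gene Cldn5 varied more between mice, with 30.8 ± 19.1 CPM in UNX/DOCA ITF2357, 20.05 ± 10.2 CPM in UNX/DOCA vehicle and 29.6 ± 9.49 CPM in Sham vehicle hearts.

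Of the 6 pan-endothelial receptor genes, Ptprb was called. Ptprb had 186, 230.5, 179 and 221 CPM in the UNX/DOCA ITF2357 libraries, 143, 166, 121 and 151 CPM in the UNX/DOCA vehicle libraries and 164, 167, 181 and 158 CPM in the Sham vehicle libraries. All 4 UNX/DOCA ITF2357 libraries lay above all 4 UNX/DOCA vehicle libraries, and UNX/DOCA ITF2357 replicate 3 lay within the Sham vehicle range. Ptprb averaged 204 ± 25.6 CPM in UNX/DOCA ITF2357 hearts, against 145 ± 18.7 CPM in UNX/DOCA vehicle hearts (SD, n = 4 each), and rose by 0.49 ± 0.10 on the log2 scale (SE, adjusted p = 0.0496). For UNX/DOCA vehicle over Sham vehicle the log2 fold change was -0.21 ± 0.10 (adjusted p = 0.354) and for UNX/DOCA ITF2357 over Sham vehicle 0.29 ± 0.10 (adjusted p = 0.155). The call sat at the threshold: it held in 5 of 21 alternatives, with adjusted p from 0.00235 to 0.254 and log2 fold changes from 0.39 to 0.56. Those 5 were library totals, no filter, the 1 CPM filter, DESeq2 and the fit without UNX/DOCA vehicle replicate 2, so that leaving out any other single library ended it. Without UNX/DOCA vehicle replicates 3 and 4 the fold change was 0.40 (adjusted p = 0.254).

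Kdr, the main receptor for vascular endothelial growth factor in blood vessels, had 106, 182, 96.03 and 119 CPM in the UNX/DOCA ITF2357 libraries, 207, 177, 126 and 157 CPM in the UNX/DOCA vehicle libraries and 202, 223, 144 and 201 CPM in the Sham vehicle libraries. In UNX/DOCA ITF2357 hearts 3 of the 4 libraries lay below all libraries of the other 2 groups, and replicate 2 lay within them. Its log2 fold change was -0.61 ± 0.21 for UNX/DOCA ITF2357 over Sham vehicle (adjusted p = 0.131), -0.41 ± 0.21 for UNX/DOCA ITF2357 over UNX/DOCA vehicle (adjusted p = 0.315) and -0.21 ± 0.21 for UNX/DOCA vehicle over Sham vehicle (adjusted p = 0.660). The first of these passed in 3 of 21 alternatives. They were DESeq2 (adjusted p = 0.0481), limma-voom (adjusted p = 0.0233) and the fit without UNX/DOCA ITF2357 replicate 2 (-0.85, adjusted p = 0.0474). Eng (endoglin), a co-receptor for the bone morphogenetic proteins that reach vessels in the blood, had 162, 216, 134 and 175 CPM in UNX/DOCA ITF2357, 197, 210.1, 229 and 217 CPM in UNX/DOCA vehicle and 192, 211, 140.5 and 180.2 CPM in Sham vehicle libraries. The UNX/DOCA vehicle libraries were close together and the other 2 groups overlapped them, with a log2 fold change of -0.31 ± 0.14 for UNX/DOCA ITF2357 over UNX/DOCA vehicle (adjusted p = 0.261). Flt1, Tek and Tie1 did not pass: their log2 fold changes for UNX/DOCA ITF2357 over UNX/DOCA vehicle were 0.11, 0.15 and -0.03.

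The 4 transcription factor genes Erg, Fli1, Sox17 and Sox18, which drive endothelial gene expression, did not pass in any comparison. Sox17, a factor of arterial and angiogenic endothelium, had 20.1, 28.7, 27.02 and 48.5 CPM in the UNX/DOCA ITF2357 libraries, 24.5, 20.7, 42.4 and 41.1 CPM in the UNX/DOCA vehicle libraries and 21.6, 16.04, 25.04 and 18.1 CPM in the Sham vehicle libraries. The groups overlapped, and UNX/DOCA ITF2357 replicate 4 and UNX/DOCA vehicle replicates 3 and 4 were the highest libraries. Its log2 fold change was 0.67 ± 0.29 for UNX/DOCA vehicle over Sham vehicle (adjusted p = 0.290) and -0.05 ± 0.28 for UNX/DOCA ITF2357 over UNX/DOCA vehicle (adjusted p = 0.946). Leaving out UNX/DOCA vehicle replicates 3 and 4 gave 0.16 (adjusted p = 0.958) and 0.45 (adjusted p = 0.614) for Sox17 in these comparisons. Erg, an ETS factor found in nearly all endothelial cells, averaged 22.3 ± 4.37 CPM in UNX/DOCA ITF2357, 22.98 ± 2.38 CPM in UNX/DOCA vehicle and 22.7 ± 1.38 CPM in Sham vehicle hearts. Its log2 fold change was 0.02 ± 0.12 for UNX/DOCA vehicle over Sham vehicle (adjusted p = 0.953). Fli1, its ETS family relative, had -0.01 and Sox18, a partner of Sox17 in the SoxF family, 0.19 in the same comparison.

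The 3 secreted and vasoactive genes were Vwf, Nos3 and Egfl7, and 0 of the 3 passed. Vwf encodes von Willebrand factor, a clotting protein that endothelium stores with P-selectin and that megakaryocytes also make. Vwf had 48.03, 61.7, 64.4 and 56.3 CPM in the UNX/DOCA ITF2357 libraries, 31.8, 44.5, 103 and 51.2 CPM in the UNX/DOCA vehicle libraries and 56.1, 43.1, 49.5 and 46.2 CPM in the Sham vehicle libraries. UNX/DOCA vehicle replicate 3 was the highest and replicate 1 the lowest of all 12 libraries, and the groups overlapped. Vwf had a log2 fold change of 0.24 ± 0.28 for UNX/DOCA vehicle over Sham vehicle (adjusted p = 0.710) and 0.00 ± 0.28 for UNX/DOCA ITF2357 over UNX/DOCA vehicle (adjusted p = 0.997). These values were -0.35 and 0.59 without UNX/DOCA vehicle replicates 3 and 4. Nos3, the endothelial nitric oxide synthase, averaged 17.6 ± 4.87 CPM in UNX/DOCA ITF2357, 20.4 ± 8.19 CPM in UNX/DOCA vehicle and 17.3 ± 1.76 CPM in Sham vehicle hearts. Egfl7, a secreted matrix protein of endothelium, had log2 fold changes of -0.02 for UNX/DOCA vehicle over Sham vehicle and -0.15 for UNX/DOCA ITF2357 over UNX/DOCA vehicle. Its exons overlap those of Agpat2 on the opposite strand, which held 12767 counts over the 12 libraries against 23460 for Egfl7.

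Among the 8 capillary and angiogenic genes, Apln was called in 1 comparison and the other 7 in none. Apln had 3.48, 4.40, 2.10 and 3.19 CPM in the UNX/DOCA ITF2357 libraries, 4.79, 6.24, 6.28 and 4.64 CPM in the UNX/DOCA vehicle libraries and 7.64, 11.6, 5.58 and 8.05 CPM in the Sham vehicle libraries. The 4 UNX/DOCA ITF2357 libraries lay below all 8 libraries of the other 2 groups, and UNX/DOCA vehicle and Sham vehicle libraries overlapped. Apln averaged 3.29 ± 0.949 CPM in UNX/DOCA ITF2357 hearts, 5.49 ± 0.892 CPM in UNX/DOCA vehicle hearts and 8.21 ± 2.49 CPM in Sham vehicle hearts (SD, n = 4 each). It fell in UNX/DOCA ITF2357 relative to Sham vehicle hearts, with a log2 fold change of -1.32 ± 0.24 (SE, adjusted p = 0.0269). For UNX/DOCA ITF2357 over UNX/DOCA vehicle the value was -0.73 ± 0.24 (adjusted p = 0.145), and for UNX/DOCA vehicle over Sham vehicle -0.59 ± 0.24 (adjusted p = 0.263). The call against Sham vehicle held in 16 of 21 alternatives and ended without UNX/DOCA ITF2357 replicate 3 (-1.16, adjusted p = 0.0676), without replicate 4 (adjusted p = 0.0709), and without Sham vehicle replicate 1 (0.0720), 2 (-1.11, 0.0897) or 4 (0.0697). Aplnr, the receptor of apelin, averaged 19.5 ± 11.3 CPM in UNX/DOCA ITF2357, 18.9 ± 6.68 CPM in UNX/DOCA vehicle and 19.6 ± 10.5 CPM in Sham vehicle hearts, a spread wider than any difference between group means.

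Fabp4, a fatty acid carrier of capillary endothelium that adipocytes and macrophages also make, was the second capillary gene whose groups did not overlap. Fabp4 had 86.6, 193, 98.8 and 160.5 CPM in the UNX/DOCA ITF2357 libraries, 98.8, 109, 123 and 137 CPM in the UNX/DOCA vehicle libraries and 68.8, 82.6, 84.8 and 67.6 CPM in the Sham vehicle libraries. Every library of both UNX/DOCA groups lay above every Sham vehicle library, while UNX/DOCA ITF2357 and UNX/DOCA vehicle libraries overlapped. Fabp4 had a log2 fold change of 0.83 ± 0.22 for UNX/DOCA ITF2357 over Sham vehicle (adjusted p = 0.0716) and 0.62 ± 0.22 for UNX/DOCA vehicle over Sham vehicle (adjusted p = 0.212). Neither passed in the main edgeR fit. The first passed in 2 of 21 alternatives, DESeq2 (adjusted p = 0.00808) and the fit without UNX/DOCA ITF2357 replicate 1 (adjusted p = 0.0379). The 5 adipocyte markers summed to 0.295 to 0.881 CPM in UNX/DOCA ITF2357, 0 to 1.82 CPM in UNX/DOCA vehicle and 0.514 to 1.32 CPM in Sham vehicle libraries, with Lep at 0 in 11 of the 12, so adipocyte markers were near 0 throughout. The 10 macrophage markers summed to 216 to 396 CPM in UNX/DOCA ITF2357, 242 to 635 CPM in UNX/DOCA vehicle and 242 to 313 CPM in Sham vehicle libraries, and their part in the Fabp4 values was not tested.

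**Figure D3:**
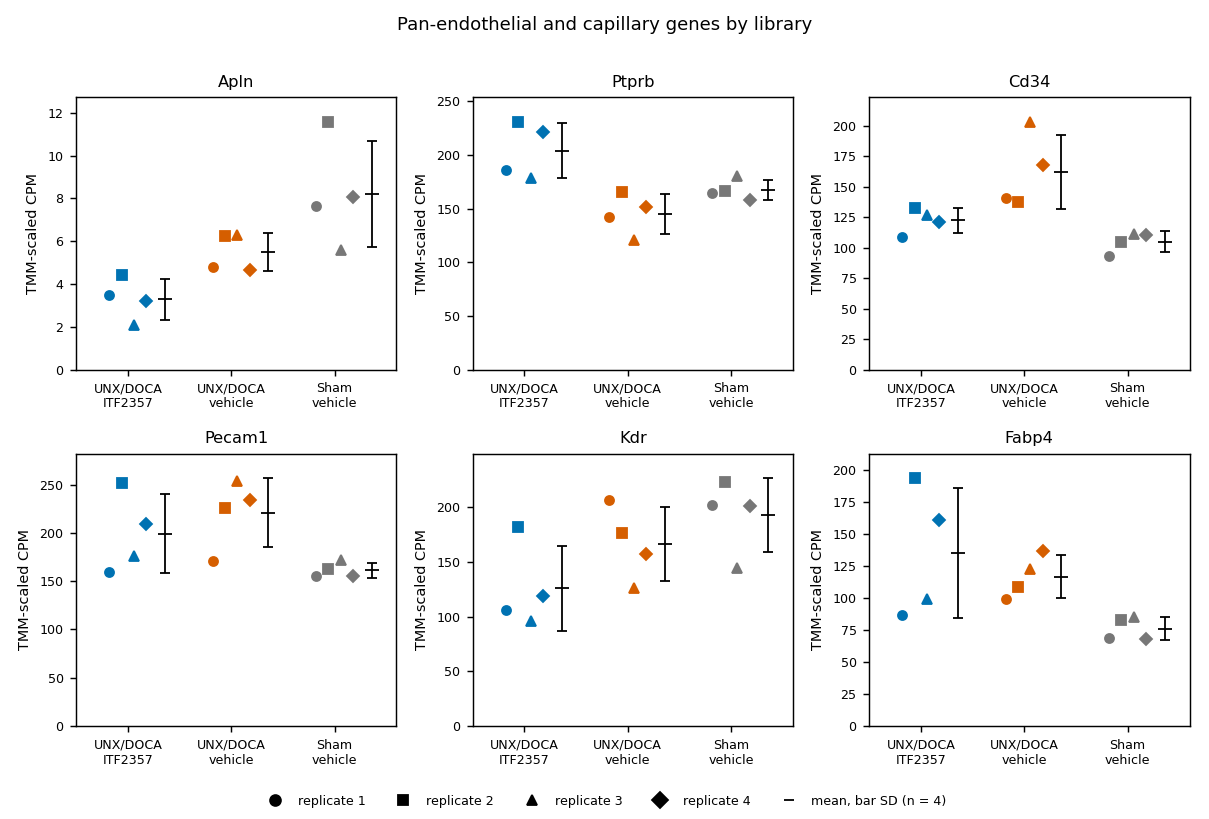
TMM-scaled CPM (y axis) of Apln, Ptprb, Cd34, Pecam1, Kdr and Fabp4 in each library of the 3 groups, with a marker shape for each replicate and the mean and SD beside them. The UNX/DOCA ITF2357 points lie lowest for Apln and above the UNX/DOCA vehicle points for Ptprb, the UNX/DOCA vehicle points lie highest for Cd34, and the Sham vehicle points lie lowest for Fabp4.

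The remaining capillary and angiogenic genes were Cav1, Plvap, Rgcc, Esm1 and Unc5b. Cav1 averaged 290.4 ± 87.2 CPM in UNX/DOCA ITF2357, 283 ± 37.3 CPM in UNX/DOCA vehicle and 225 ± 11.4 CPM in Sham vehicle hearts, and its log2 fold change was 0.37 ± 0.16 for UNX/DOCA ITF2357 over Sham vehicle (adjusted p = 0.236). Plvap, which builds the diaphragms of fenestrated capillaries and caveolae, averaged 7.32 ± 0.889 CPM in UNX/DOCA ITF2357, 8.31 ± 2.35 CPM in UNX/DOCA vehicle and 6.53 ± 1.45 CPM in Sham vehicle hearts. Esm1 was low, at 0.618 ± 0.308 CPM in UNX/DOCA ITF2357, 1.08 ± 0.272 CPM in UNX/DOCA vehicle and 0.880 ± 0.603 CPM in Sham vehicle hearts. For Rgcc the SD in Sham vehicle hearts was wide against its mean (32.3 ± 22.7 CPM), and its log2 fold change of 0.68 ± 0.46 for UNX/DOCA vehicle over Sham vehicle did not pass (adjusted p = 0.504). Unc5b, a guidance receptor of sprouting vessels, had 0.09 for UNX/DOCA vehicle over Sham vehicle and -0.33 for UNX/DOCA ITF2357 over UNX/DOCA vehicle.

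The 2 arterial genes were Gja5, which encodes the gap junction protein connexin 40 of arterial endothelium and also of the conduction system, and Dll4, the Notch ligand of arterial and tip cells. Gja5 had 7.76, 10.1, 10.8 and 7.21 CPM in the UNX/DOCA ITF2357 libraries, 4.76, 6.01, 7.56 and 6.55 CPM in the UNX/DOCA vehicle libraries and 8.67, 9.11, 5.30 and 8.29 CPM in the Sham vehicle libraries. In UNX/DOCA ITF2357 hearts 3 of the 4 libraries lay above all UNX/DOCA vehicle libraries, and replicate 4 lay just below the highest of them. The log2 fold change was 0.53 ± 0.20 for UNX/DOCA ITF2357 over UNX/DOCA vehicle (adjusted p = 0.176) and -0.34 ± 0.20 for UNX/DOCA vehicle over Sham vehicle (adjusted p = 0.421). Exons of Gja5 overlap those of Gpr89 on the opposite strand in the annotation used here, and Gpr89 held 4893 counts over the 12 libraries against 2632 for Gja5, so without a stated strand setting of the counting some reads of one could belong to the other. Dll4 had 12.4, 32.3, 17.3 and 11.1 CPM in the UNX/DOCA ITF2357 libraries, 9.18, 19.6, 23.5 and 12.3 CPM in the UNX/DOCA vehicle libraries and 22.9, 25, 18.8 and 10.4 CPM in the Sham vehicle libraries. The 3 groups overlapped and each spanned a wide range, with a log2 fold change of 0.19 ± 0.39 for UNX/DOCA ITF2357 over UNX/DOCA vehicle (adjusted p = 0.840) and -0.26 ± 0.39 for UNX/DOCA vehicle over Sham vehicle (adjusted p = 0.780). The medians of the pair were -0.30 for UNX/DOCA vehicle over Sham vehicle and 0.36 for UNX/DOCA ITF2357 over UNX/DOCA vehicle, and 0 of 2 passed.

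The 5 venous and activated genes take part in the passage of leukocytes through the venule wall. Ackr1 is the atypical chemokine receptor of postcapillary venules, Selp (P-selectin) and Sele (E-selectin) catch rolling leukocytes, and Icam1 and Vcam1 bind leukocyte integrins for firm adhesion. Sele and Icam1 are textbook targets of NF-kB, so the bases before their starts are printed with those of Selp and Ackr1. The promoter windows are those of RefSeq on build GRCm38.p6, which had a window for 4 of the 5 genes and for 25 of the 39. Each sequence holds the 250 bases before the annotated start, 5′ to 3′ on the gene's strand, in lower case with matches to the NF-kB type motif GGANNTTCC (either strand) in capitals; Selp and Ackr1 hold none. The windows lie at chr1:164047984-164048233, plus strand (Sele), chr1:164115014-164115263, plus strand (Selp), chr1:173333504-173333753, minus strand (Ackr1) and chr9:21015690-21015939, plus strand (Icam1).
Sele: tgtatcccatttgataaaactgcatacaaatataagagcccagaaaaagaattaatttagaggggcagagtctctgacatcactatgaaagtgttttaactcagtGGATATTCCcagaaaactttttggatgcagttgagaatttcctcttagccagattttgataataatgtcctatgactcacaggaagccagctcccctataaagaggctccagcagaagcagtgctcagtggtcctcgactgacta
Selp: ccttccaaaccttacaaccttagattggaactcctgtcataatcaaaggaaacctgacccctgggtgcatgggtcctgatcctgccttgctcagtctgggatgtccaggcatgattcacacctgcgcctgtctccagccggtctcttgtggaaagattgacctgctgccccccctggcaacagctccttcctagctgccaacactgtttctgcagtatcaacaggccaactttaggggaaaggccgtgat
Ackr1: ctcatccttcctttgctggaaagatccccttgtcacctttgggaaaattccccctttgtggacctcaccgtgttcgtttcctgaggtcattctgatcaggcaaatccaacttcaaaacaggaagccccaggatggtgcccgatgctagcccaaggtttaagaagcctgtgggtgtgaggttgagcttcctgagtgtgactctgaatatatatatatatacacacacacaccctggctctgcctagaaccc
Icam1: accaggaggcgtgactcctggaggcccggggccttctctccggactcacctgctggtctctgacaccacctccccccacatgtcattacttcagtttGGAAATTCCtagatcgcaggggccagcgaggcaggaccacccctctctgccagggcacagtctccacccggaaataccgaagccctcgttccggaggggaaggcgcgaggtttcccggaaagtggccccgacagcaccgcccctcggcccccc
Motifs were searched from 250 bases before to 50 bases after the start. The motif matched in 2 of these 4 windows, Sele and Icam1, and in no other of the 25 members with a window, beside 4.26% of 32851 windows of all genes. A longer NF-kB type motif, a fixed pattern of 10 letters, matched in 0 of the 25, beside 1.63% of all windows. Other 10-letter forms of the NF-kB motif were not searched. These counts therefore do not show that a window, those of Selp and Ackr1 included, holds no NF-kB type site. The ETS type motif AGGAAG, whose factors include Erg and Fli1, matched in 15 of the 25, beside 35.4% of all windows, and CCGGAA in 3 of the 25, beside 14.9%. The SoxF type motif ACAATG matched in 3 of the 25, beside 12.6%. A match of letters is a description and does not show that a factor binds there.

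Selp had 0.111, 0.0911, 0.230 and 0.414 CPM in the UNX/DOCA ITF2357 libraries, 0.236, 0.129, 3.62 and 1.65 CPM in the UNX/DOCA vehicle libraries and 0.0380, 0.112, 0 and 0.481 CPM in the Sham vehicle libraries. These rest on 3, 3, 7 and 10 reads in UNX/DOCA ITF2357, 7, 4, 87 and 46 reads in UNX/DOCA vehicle and 1, 4, 0 and 12 reads in Sham vehicle libraries. UNX/DOCA vehicle replicates 3 and 4 stood far above the other 10 libraries, and replicates 1 and 2 lay within the range of the other groups. Selp had a log2 fold change of 3.13 ± 1.06 for UNX/DOCA vehicle over Sham vehicle (adjusted p = 0.200) and -2.73 ± 1.01 for UNX/DOCA ITF2357 over UNX/DOCA vehicle (adjusted p = 0.184). With UNX/DOCA vehicle replicates 3 and 4 left out, the values were 0.24 and 0.16. For UNX/DOCA ITF2357 over Sham vehicle, 2 groups that hold neither library, the log2 fold change was 0.41 ± 1.28 (adjusted p = 0.897). Its SE and adjusted p still drew on the spread of all 12 libraries.

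Ackr1 had a like pattern over libraries, with 0.407, 0.182, 0.361 and 0.497 CPM in the UNX/DOCA ITF2357 libraries, 0.101, 0.0646, 2.62 and 1.08 CPM in the UNX/DOCA vehicle libraries and 0.190, 0.223, 0.237 and 0.200 CPM in the Sham vehicle libraries. UNX/DOCA vehicle replicates 3 and 4 were the highest 2 libraries of the 12, and replicates 1 and 2, with 3 and 2 reads, were the lowest. The log2 fold change was 2.11 ± 0.88 for UNX/DOCA vehicle over Sham vehicle (adjusted p = 0.279) and -1.39 ± 0.82 for UNX/DOCA ITF2357 over UNX/DOCA vehicle (adjusted p = 0.388). Without UNX/DOCA vehicle replicates 3 and 4 the values were -1.32 and 2.04. As those were the highest 2 libraries, leaving them out was bound to lower the group, and the remaining libraries held 3 and 2 reads. These values therefore give no direction. Ackr1 shares exon positions with Cadm3 on the same strand, which held 1747 counts against 162 for Ackr1 over the 12 libraries, so its low counts depend on how shared reads were assigned.

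Sele had 0.666, 0.759, 0.426 and 1.08 CPM in the UNX/DOCA ITF2357 libraries, 2.43, 0.646, 6.19 and 4.28 CPM in the UNX/DOCA vehicle libraries and 1.86, 1.79, 0.712 and 4.41 CPM in the Sham vehicle libraries. The UNX/DOCA ITF2357 libraries sat together at the low end, while UNX/DOCA vehicle and Sham vehicle libraries each held both low and high values, and the lowest library of either group lay in the UNX/DOCA ITF2357 range. Sele averaged 0.732 ± 0.269 CPM in UNX/DOCA ITF2357, 3.39 ± 2.39 CPM in UNX/DOCA vehicle and 2.19 ± 1.57 CPM in Sham vehicle hearts (SD, n = 4 each). Its log2 fold change was -2.21 ± 0.65 for UNX/DOCA ITF2357 over UNX/DOCA vehicle (adjusted p = 0.113), -1.59 ± 0.65 for UNX/DOCA ITF2357 over Sham vehicle (adjusted p = 0.208) and 0.62 ± 0.59 for UNX/DOCA vehicle over Sham vehicle (adjusted p = 0.643). The first of these passed with DESeq2 (adjusted p = 0.0104) and without UNX/DOCA vehicle replicate 2 (adjusted p = 0.0444), and it was -1.08 without UNX/DOCA vehicle replicates 3 and 4 (adjusted p = 0.576).

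Icam1 had 10.6, 7.41, 8.69 and 18.6 CPM in the UNX/DOCA ITF2357 libraries, 9.79, 9.05, 32.5 and 17.6 CPM in the UNX/DOCA vehicle libraries and 12.7, 12.1, 7.48 and 15.98 CPM in the Sham vehicle libraries. UNX/DOCA vehicle replicate 3 was the highest of the 12 and the groups overlapped. The log2 fold change was 0.51 ± 0.41 for UNX/DOCA vehicle over Sham vehicle (adjusted p = 0.584) and -0.60 ± 0.41 for UNX/DOCA ITF2357 over UNX/DOCA vehicle (adjusted p = 0.464). Vcam1 had 8.91, 14.9, 14.5 and 16.2 CPM in the UNX/DOCA ITF2357 libraries, 10.4, 12.2, 22.03 and 15.1 CPM in the UNX/DOCA vehicle libraries and 15.7, 11.01, 10.4 and 12.7 CPM in the Sham vehicle libraries. Here too UNX/DOCA vehicle replicate 3 was the highest library, and the log2 fold change was 0.26 ± 0.24 for UNX/DOCA vehicle over Sham vehicle (adjusted p = 0.626) and -0.13 ± 0.24 for UNX/DOCA ITF2357 over UNX/DOCA vehicle (adjusted p = 0.812). Without UNX/DOCA vehicle replicates 3 and 4 the values for UNX/DOCA vehicle over Sham vehicle were -0.36 for Icam1 and -0.14 for Vcam1. Both genes are also made by cells other than endothelium.

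All 5 venous and activated genes had a fold change above 0 for UNX/DOCA vehicle over Sham vehicle (median 0.62) and all 5 below 0 for UNX/DOCA ITF2357 over UNX/DOCA vehicle (median -1.39), with 0 of 5 called in either. Without UNX/DOCA vehicle replicate 3 these medians were 0.16 and -0.20, and without replicates 3 and 4 they were -0.36 and 0.25. The median of -1.39 was the value of Ackr1, which like Selp rests on few reads. Neither gene reached 1 CPM in 4 libraries. For Selp and Ackr1, UNX/DOCA vehicle replicates 3 and 4 were the highest libraries. For Sele, Icam1 and Vcam1 replicate 3 was the highest, and replicate 4 lay below a library of another group. The neutrophil markers too were highest in replicates 3 and 4 of UNX/DOCA vehicle. Their summed level was 5.18, 17.8, 15.6 and 28.7 CPM in UNX/DOCA ITF2357 libraries, 24.9, 3.91, 518 and 162 CPM in UNX/DOCA vehicle libraries and 38.0, 45.2, 14.0 and 35.9 CPM in Sham vehicle libraries. Of the 8 markers 7 passed the filter, and all 7 had a fold change above 0 for UNX/DOCA vehicle over Sham vehicle (median 2.47) and below 0 for UNX/DOCA ITF2357 over UNX/DOCA vehicle (median -3.46), with 0 called, while Ly6g was at 0 in 4 of the 12 libraries. Of the 6 platelet markers, which matter for Selp because platelets carry it, 4 passed the filter, and their summed level was 10.2 to 14.4 CPM in UNX/DOCA ITF2357, 12.4 to 20.1 CPM in UNX/DOCA vehicle and 11.9 to 20.8 CPM in Sham vehicle libraries. The part of either cell type in the venous and activated values was not tested.

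**Figure D4:**
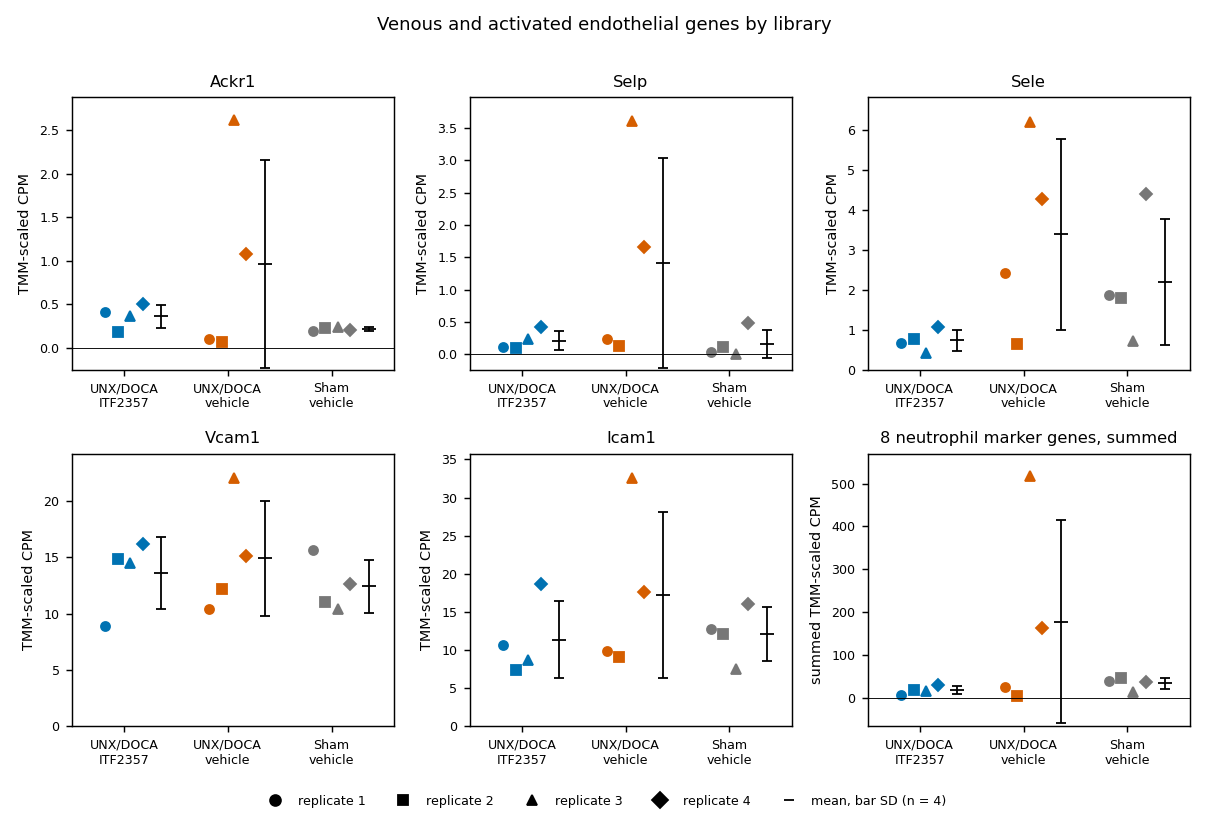
TMM-scaled CPM (y axis) of Ackr1, Selp, Sele, Vcam1 and Icam1, and the summed CPM of 8 neutrophil marker genes, in each library of the 3 groups, with a marker shape for each replicate and the mean and SD beside them. UNX/DOCA vehicle replicate 3 is the highest point in each of the 6 panels, and replicates 3 and 4 stand apart from the other 10 libraries for Selp, Ackr1 and the neutrophil markers.

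Of the 3 lymphatic genes 0 passed in any comparison, and their medians were -0.10 for UNX/DOCA vehicle over Sham vehicle, 0.32 for UNX/DOCA ITF2357 over UNX/DOCA vehicle and 0.02 for UNX/DOCA ITF2357 over Sham vehicle. When UNX/DOCA vehicle replicates 3 and 4 were left out, the first 2 medians were -0.05 and 0.03. Prox1 had 76.2, 68.6, 49.5 and 47.02 CPM in the UNX/DOCA ITF2357 libraries, 70.7, 49.2, 38.7 and 34.8 CPM in the UNX/DOCA vehicle libraries and 78.3, 57.9, 40.3 and 72.2 CPM in the Sham vehicle libraries. The groups overlapped, with a log2 fold change of -0.36 ± 0.25 for UNX/DOCA vehicle over Sham vehicle (adjusted p = 0.520) and 0.32 ± 0.25 for UNX/DOCA ITF2357 over UNX/DOCA vehicle (adjusted p = 0.534). In Sham vehicle hearts Prox1 stood at 7.41 ± 2.02 CPM per kilobase, against 1.10 ± 0.185 for Mmrn1 and 2.32 ± 0.191 for Flt4 on the same scale. Heart muscle cells also make Prox1, so its level in ventricle is not that of lymphatics alone.

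Mmrn1 encodes multimerin 1, a secreted protein of lymphatic endothelium and platelets. Mmrn1 had 4.62, 4.01, 10.3 and 14.6 CPM in the UNX/DOCA ITF2357 libraries, 3.71, 5.62, 6.98 and 7.73 CPM in the UNX/DOCA vehicle libraries and 6.96, 4.97, 6.33 and 7.49 CPM in the Sham vehicle libraries. UNX/DOCA ITF2357 replicates 3 and 4 were above all other libraries, and replicates 1 and 2 were among the lowest. Mmrn1 had a log2 fold change of 0.48 ± 0.37 for UNX/DOCA ITF2357 over UNX/DOCA vehicle (adjusted p = 0.524) and -0.10 ± 0.37 for UNX/DOCA vehicle over Sham vehicle (adjusted p = 0.920). Flt4 had 15.3, 19.8, 17.97 and 24.3 CPM in the UNX/DOCA ITF2357 libraries, 16.1, 21.4, 32.4 and 26.5 CPM in the UNX/DOCA vehicle libraries and 18.4, 17.3, 19.9 and 20.8 CPM in the Sham vehicle libraries. UNX/DOCA vehicle replicates 3 and 4 were the highest 2 libraries, and the groups overlapped. The log2 fold change was 0.34 ± 0.19 for UNX/DOCA vehicle over Sham vehicle (adjusted p = 0.407) and -0.32 ± 0.19 for UNX/DOCA ITF2357 over UNX/DOCA vehicle (adjusted p = 0.388). With those 2 libraries left out, the values for Flt4 were -0.02 (adjusted p = 0.988) and 0.03 (adjusted p = 0.963).

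**Figure D5:**
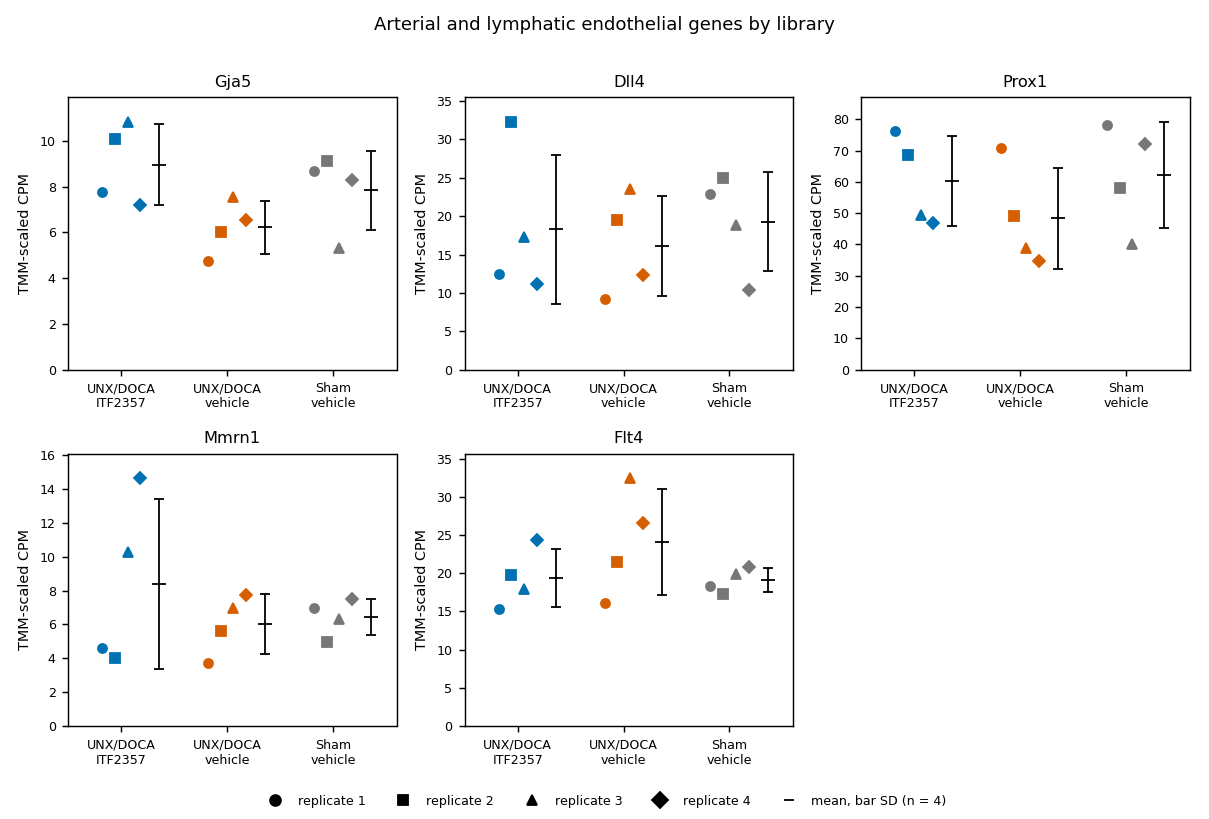
TMM-scaled CPM (y axis) of the arterial genes Gja5 and Dll4 and the lymphatic genes Prox1, Mmrn1 and Flt4 in each library of the 3 groups, with a marker shape for each replicate and the mean and SD beside them. The groups overlap for all 5 genes, and the UNX/DOCA ITF2357 points for Mmrn1 split into 2 low and 2 high libraries.

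Genes of the pathways that act on these vessels were read from lists outside the 39. The Notch and arterial list had 14 tested genes, with 0 called in UNX/DOCA vehicle against Sham vehicle, 0 in UNX/DOCA ITF2357 against UNX/DOCA vehicle, and 1 called in each direction in UNX/DOCA ITF2357 against Sham vehicle. In the last comparison 0.913% of all genes were called higher and 0.842% lower. Sema3g, a semaphorin secreted by arterial endothelium, had 26.4, 34.04, 29.9 and 27.6 CPM in UNX/DOCA ITF2357, 23.6, 25.2, 30.3 and 24.4 CPM in UNX/DOCA vehicle and 20.6, 19.03, 19.5 and 16.9 CPM in Sham vehicle libraries. Every library of both UNX/DOCA groups lay above every Sham vehicle library. Sema3g rose to 29.5 ± 3.36 CPM in UNX/DOCA ITF2357, against 18.98 ± 1.55 CPM in Sham vehicle hearts, a log2 fold change of 0.64 ± 0.11 (adjusted p = 0.0180), and was 0.45 for UNX/DOCA vehicle over Sham vehicle (adjusted p = 0.108). The latter value passed in 3 of 21 alternatives. Notch1, the receptor that Dll4 engages, had 24.6, 33.9, 24.8 and 27.9 CPM in UNX/DOCA ITF2357, 29.4, 27.02, 30.6 and 31.1 CPM in UNX/DOCA vehicle and 40.1, 40.3, 36 and 36.2 CPM in Sham vehicle libraries. The Sham vehicle libraries lay above all 8 UNX/DOCA libraries. Notch1 fell in UNX/DOCA ITF2357 relative to Sham vehicle hearts, with a log2 fold change of -0.46 ± 0.10 (adjusted p = 0.0436). The smallest p for UNX/DOCA ITF2357 over UNX/DOCA vehicle was that of the Notch ligand Jag2, at -0.27 (adjusted p = 0.191). The Sema3g call held in 17 of 21 alternatives and the Notch1 call in 11 of 21; leaving out UNX/DOCA ITF2357 replicate 3 or Sham vehicle replicate 1, 2 or 4 ended both, and the Notch1 call also ended without UNX/DOCA ITF2357 replicate 1 or 4, UNX/DOCA vehicle replicate 4 or Sham vehicle replicate 3.

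In the list of cytokine inputs to activated endothelium, 16 of 18 genes were tested, 13 of the 16 had a fold change above 0 for UNX/DOCA vehicle over Sham vehicle (median 0.27, 0 called), and 16 of 16 had one below 0 for UNX/DOCA ITF2357 over UNX/DOCA vehicle (median -0.73, 1 called). Medians over all genes were 0.007 and -0.001 in these comparisons, and 0.442% of all genes were called lower in the second. For UNX/DOCA ITF2357 over Sham vehicle 3 of 16 were above 0 (median -0.51, 0 called). For UNX/DOCA vehicle over Sham vehicle the smallest p was that of Tnfrsf1a, the main receptor of tumour necrosis factor, at 0.69 (adjusted p = 0.134). Tnfrsf1a passed in 3 of 21 alternatives in this comparison. The called gene was Nfkb2, which encodes the p100 and p52 subunit of NF-kB. Nfkb2 had 14.6, 12.9, 12.3 and 13.3 CPM in UNX/DOCA ITF2357, 20.3, 19.5, 35.03 and 20.6 CPM in UNX/DOCA vehicle and 20.5, 18.02, 16.5 and 19.4 CPM in Sham vehicle libraries. All 4 UNX/DOCA ITF2357 libraries lay below all libraries of the other 2 groups. Nfkb2 fell to 13.3 ± 0.967 CPM in UNX/DOCA ITF2357, against 23.9 ± 7.46 CPM in UNX/DOCA vehicle hearts, a log2 fold change of -0.84 ± 0.17 (adjusted p = 0.0398). The call held in 8 of 21 alternatives, with values from -0.92 to -0.59. It ended without any 1 of the UNX/DOCA ITF2357 or Sham vehicle libraries or UNX/DOCA vehicle replicate 4. With UNX/DOCA vehicle replicates 3 and 4 both left out, the value was -0.59 (adjusted p = 0.0707). The list's median was then -0.20, and for UNX/DOCA vehicle over Sham vehicle it changed sign to -0.12. Neutrophil and macrophage markers moved with this list in the same 2 libraries. Lymphocyte markers were also low in UNX/DOCA ITF2357 libraries: their summed level over 8 genes was 1.31 to 1.81 CPM in UNX/DOCA ITF2357, 2.13 to 4.14 CPM in UNX/DOCA vehicle and 2.77 to 4.28 CPM in Sham vehicle libraries. Of the 3 lymphocyte markers tested, 1 was called lower in UNX/DOCA ITF2357 against each of the other groups, beside 0.442% of all genes against UNX/DOCA vehicle and 0.842% against Sham vehicle. The part of these cells in the list's values was not tested. The smallest p for UNX/DOCA ITF2357 over Sham vehicle was that of Relb, a partner of p52, at -0.82 (adjusted p = 0.0624). Relb passed in 7 of 21 alternatives in this comparison. The 7 tested leukocyte ligand genes, the partners of the selectins and adhesion molecules, were all above 0 for UNX/DOCA vehicle over Sham vehicle (median 0.86) and all below 0 for UNX/DOCA ITF2357 over UNX/DOCA vehicle (median -1.12), with 0 called. Without UNX/DOCA vehicle replicate 3 these medians were 0.29 and -0.61, and without replicates 3 and 4 of that group -0.09 and -0.21, so the first changed sign. Among them the integrin gene Itgb2 had 0.89 for UNX/DOCA vehicle over Sham vehicle (adjusted p = 0.305), which was -0.09 (adjusted p = 0.967) with both of those libraries left out, and Itgal, its partner in the Icam1 receptor, had -0.81 for UNX/DOCA ITF2357 over Sham vehicle (adjusted p = 0.433).

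The other pathway lists had 0 calls in all 3 comparisons, and the gene with the smallest p in each is given as a value. In the list of vascular endothelial growth factor and angiopoietin genes (10 tested), Angptl4, a lipase inhibitor induced by fatty acids and hypoxia, averaged 17.95 ± 14.7 CPM in UNX/DOCA ITF2357, 19.97 ± 10.5 CPM in UNX/DOCA vehicle and 4.28 ± 2.36 CPM in Sham vehicle hearts. Its log2 fold change was 2.24 ± 0.59 for UNX/DOCA vehicle over Sham vehicle (adjusted p = 0.133) and 2.09 for UNX/DOCA ITF2357 over Sham vehicle (adjusted p = 0.0876). Angpt1, the ligand that activates Tek, averaged 31.97 ± 10.8 CPM in UNX/DOCA ITF2357 and 16.3 ± 6.33 CPM in UNX/DOCA vehicle hearts, with a log2 fold change of 0.97 ± 0.30 (adjusted p = 0.133). Of the 2 venous identity genes, Nr2f2 (COUP-TFII) had 0.91 for UNX/DOCA vehicle over Sham vehicle (adjusted p = 0.219) and 0.90 for UNX/DOCA ITF2357 over Sham vehicle (adjusted p = 0.155), and Ephb4 -0.03 for UNX/DOCA ITF2357 over UNX/DOCA vehicle (adjusted p = 0.941). In the capillary lipid and gas exchange list (8 tested), Car4 (carbonic anhydrase 4) had 0.49 for UNX/DOCA ITF2357 over UNX/DOCA vehicle (adjusted p = 0.143) and Lpl (lipoprotein lipase) 0.28 for UNX/DOCA ITF2357 over Sham vehicle (adjusted p = 0.0935). In the same list Tcf15, a transcription factor of heart capillaries, had -0.56 for UNX/DOCA vehicle over Sham vehicle (adjusted p = 0.332). In the lymphatic list (5 tested), Pdpn (podoplanin) had 1.03 for UNX/DOCA vehicle over Sham vehicle (adjusted p = 0.161) and -0.93 for UNX/DOCA ITF2357 over UNX/DOCA vehicle (adjusted p = 0.145), and the chemokine gene Ccl21a had 0.70 for UNX/DOCA ITF2357 over Sham vehicle (adjusted p = 0.388). In the shear stress and BMP9 list (11 tested), Id3, a target of bone morphogenetic protein signalling, had 0.33 for UNX/DOCA vehicle over Sham vehicle (adjusted p = 0.357) and 0.39 for UNX/DOCA ITF2357 over Sham vehicle (adjusted p = 0.217), and the ligand gene Bmp4 had 0.35 for UNX/DOCA ITF2357 over UNX/DOCA vehicle (adjusted p = 0.593). In the endocardial list (5 of 6 tested), Cgnl1 had 0.24 for UNX/DOCA vehicle over Sham vehicle (adjusted p = 0.314) and -0.21 for UNX/DOCA ITF2357 over UNX/DOCA vehicle (adjusted p = 0.337), and Tmem108 had 0.51 for UNX/DOCA ITF2357 over Sham vehicle (adjusted p = 0.320). Leaving out both UNX/DOCA vehicle replicates 3 and 4, Pdpn had 0.30 and -0.21 in the comparisons given, Angptl4 1.73 and Nr2f2 0.53 for UNX/DOCA vehicle over Sham vehicle, and Angpt1 0.59 and Bmp4 0.75 for UNX/DOCA ITF2357 over UNX/DOCA vehicle. Angptl4 passed in 2 of 21 alternatives for UNX/DOCA vehicle over Sham vehicle and in 1 of 21 for UNX/DOCA ITF2357 over Sham vehicle. Lpl passed in 2 of 21 and Angpt1 in 1 of 21 in the comparisons given. Nr2f2 and Pdpn each passed in 1 of 21 for UNX/DOCA vehicle over Sham vehicle, and the other values named here passed in 0.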

How the data were processed

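Poly(A)-selected, directional libraries from about 10 mg of left ventricle each were sequenced in paired reads, per the labels' protocols. The authors deposited a table of whole-number counts for each Ensembl gene, not normalized. FastQC 0.11.9, STAR 2.7.10b and the mm39 build are named per the submitters' processing notes. The sources used here name neither a counting tool and its strand setting nor an annotation release. Replicates are separate animals per the labels' protocols. For the 4 drug samples the treatment field carries running numbers, whereas each title says ITF2357, and groups follow the titles.

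The members and lists were chosen with earlier results of these data known. Symbols came from GENCODE M21 (build GRCm38) by Ensembl identifier, for 51486 of 78334 identifiers and 15957 of 16981 genes tested, and those genes took 99.2% or more of the counts of every library. No coordinates were converted between builds. All 12 libraries entered 1 edgeR 4.0.16 fit (R 4.3.3) with a term per group, 9 residual degrees of freedom, the filterByExpr filter (minimum count 10), TMM scaling and the robust quasi-likelihood F test, with Benjamini-Hochberg adjustment over all genes tested and a threshold of 0.05. A standard error is the size of the log2 fold change over the root of F. The common biological coefficient of variation was 0.187, and at a mean depth of 28.3 M counts 1 CPM is about 28.3 reads, so counting error is small beside the spread between mice except for Ackr1, Selp, Sele and Esm1. The list levels are means of log2 CPM with a prior count of 2. For pairs of replicates within a group the chi-square per degree of freedom was 10.9 to 57.3, where counting error alone would give about 1. So no library was a repeat of another in its group.

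Values per library were given for each arterial, venous and activated, and lymphatic member, for other members that passed in a comparison or had an unadjusted p under 0.05 in the first 2 comparisons, and for Pecam1, Cdh5, Kdr and Vwf. From each pathway list up to 4 called genes were named, or the gene with the smallest p. A gene that this rule names is not reported here. Alternatives were DESeq2 1.42.0, limma-voom 3.58.1 with sample weights, unscaled library totals, RLE scaling, a minimum of 1 CPM in at least 4 libraries, all genes unfiltered, only the 2 groups compared, a replicate block, leaving out each library in turn and, added after seeing the data, leaving out UNX/DOCA vehicle replicates 3 and 4 together. The fit was also run on simulated counts drawn independently for each gene and library. That run does not cover libraries that deviate together over many genes, and its outcome is not given here. Figures were drawn with matplotlib 3.10.9 in Python 3.11.15.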

Additional observations from a re-analysis of the deposited data

Results flagged for a closer look

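The highest of the 4 UNX/DOCA vehicle values of Erg, in replicate 3, was 26.6 CPM and stood far from the other 3 libraries of the group, at 21.6, 21.8 and 21.9 CPM. It was the only such library among 117 member and group combinations examined, where chance at 1 in 20 would give 5.85.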

How the results depend on the processing

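For UNX/DOCA vehicle over Sham vehicle the number of genes called was 0, against 210 with no filter, 593 with DESeq2, 521 with limma-voom, 31 with the replicate block and 1 without UNX/DOCA vehicle replicates 3 and 4, and 0 to 380 when each library was left out. For UNX/DOCA ITF2357 over UNX/DOCA vehicle it was 153, against 352, 928, 251, 68 and 12 under the same settings, 5 with only the 2 groups, and 14 to 243 when each library was left out. For UNX/DOCA ITF2357 over Sham vehicle it was 298, against 1180 with DESeq2, 1506 with limma-voom, 475 with only the 2 groups, 192 with the replicate block, 481 without both libraries, and 17 to 616. Endothelial genes called were 1 with no filter, 1 with DESeq2, 2 with limma-voom and 1 with the block in the first comparison, against 0. In the second they were 2 with no filter and 3 with DESeq2, and 0 with RLE scaling, limma-voom, only the 2 groups, the block or without both libraries, against 1. In the third they were 3 with DESeq2 and 2 with limma-voom, against 1. Leaving out each library gave 0 to 2 in each comparison. The cause of these differences was not tested. Of 2446 fold changes of members under alternatives, 2409 kept their side of the threshold, 16 passed it anew, 21 no longer passed and 0 called values changed sign. For 64 of the 117 member and comparison pairs an uncalled value changed sign in at least 1 alternative. Under the scalings the median of all genes lay between -0.02 and 0.03 on the log2 scale. Same-numbered replicates did not deviate together (r from -0.19 to 0.25 over 12 pairs, median 0.00). These correlations cannot show whether mice were matched or handled in batches, and the main fit did not pair them. With 4 mice per group, differences of low genes such as Selp, Ackr1 and Esm1 are limited by both counting and spread.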
